A study of Sus scrofa with 5 samples.

Results

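The mitochondrial beta-oxidation cycle was examined in pig backfat through 10 genes, namely ACADVL, ACADL, ACADM, ACADS, HADHA, HADHB, HADH, ACAA2, DECR1 and ECI1. Every probe set that the array annotation assigns to exactly 1 of these symbols was taken, which gave 13 probe sets of 23999. All 10 genes had at least 1 probe set, out of 6765 genes with a single-symbol probe set on the array. ACADVL had 2 probe sets and HADHB had 3. The probe set with the highest mean over the arrays stands for a gene with several, and the other probe sets are given beside it. The array annotation used here names no genome build, so no coordinates are given.

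The tissue came from 5 females of a backcross of Iberian and Landrace pigs, with 1 Affymetrix porcine array per animal. The 3 H animals (BC4, BC5 and BC6) and the 2 L animals (BC2 and BC3) were extremes of intramuscular fatty acid composition, H with more polyunsaturated fatty acids and L with more saturated and monounsaturated ones. All of them carried the same cross and were raised on the same kind of cereal-based commercial diet without restriction. They were sampled at slaughter, with no treatment, and the paper states that they were fasting by then. Each animal is 1 biological sample, and backfat is a mixture of cells, so that fewer cells of a type cannot be told apart from less RNA per cell.

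Beta-oxidation shortens an acyl-CoA by a pair of carbons in each turn of the cycle. An acyl-CoA dehydrogenase makes the first double bond and passes electrons to the electron transfer flavoprotein, water is added, the hydroxyl group is oxidized, and a thiolase releases acetyl-CoA. The dehydrogenases divide the substrates by chain length, with ACADVL acting on very long chains, ACADL on long chains, ACADM on medium chains and ACADS on short ones. Double bonds already present in the fatty acid need auxiliary enzymes, among them DECR1 and ECI1. White adipocytes mostly store and release fatty acids, and they also oxidize some of them in their mitochondria.

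The values are log2 expression values as deposited, and a difference is the H mean minus the L mean on the log2 scale. The lowest value in the file was 2.17, and probe sets within 0.1 of it, or with 1 and the same value on all arrays, were taken as having no measured level. These made up 33.8% of the 23999 probe sets, and 14733 lay above this floor on all 5 arrays. Array medians ran only from 4.21 to 4.29. All 13 probe sets of the cycle were above the floor on every array, so none of the 10 enzymes was lost to it. Probe sets differ in how strongly they bind, and no level is compared between genes.

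None of the 10 enzymes differed between H and L by more than the H animals differed among themselves. The span within H likewise exceeded the group difference in 81% of the probe sets above the floor. The gap between the L animals was smaller than the group difference for HADHB, HADH and ACAA2. It exceeded the group difference for the other enzymes and in 58.4% of those probe sets. Mean expression was lower in H for 8 enzymes and higher for ACADVL and HADHA, with differences between -0.88 for ACADL and 0.16 for ACADVL. A call needed at most 0.01 as the p-value in limma, at most 0.1 after adjustment and at least a 1.2-fold difference, and it was reached by 0 of the 10 enzymes (0% of the 23999 probe sets). At an unadjusted p under 0.05 in limma the count was 0 of 10, against 3.18% of all probe sets (762). That share includes the probe sets at the floor, and it was not counted over those above the floor alone. The adjusted p from limma was 1 for each enzyme. The share with a lower mean in H was 8 of 10, against 45.6% of the probe sets above the floor, and the median difference over the enzymes was -0.33, against 0.022 over those probe sets. The enzymes vary together between animals and are not independent of one another. Only 5 enzymes had a lower mean in H when BC2 was left out, and the median difference was then -0.025; it was -0.14 without BC6 and -0.52 without BC4.

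**Figure D1:**
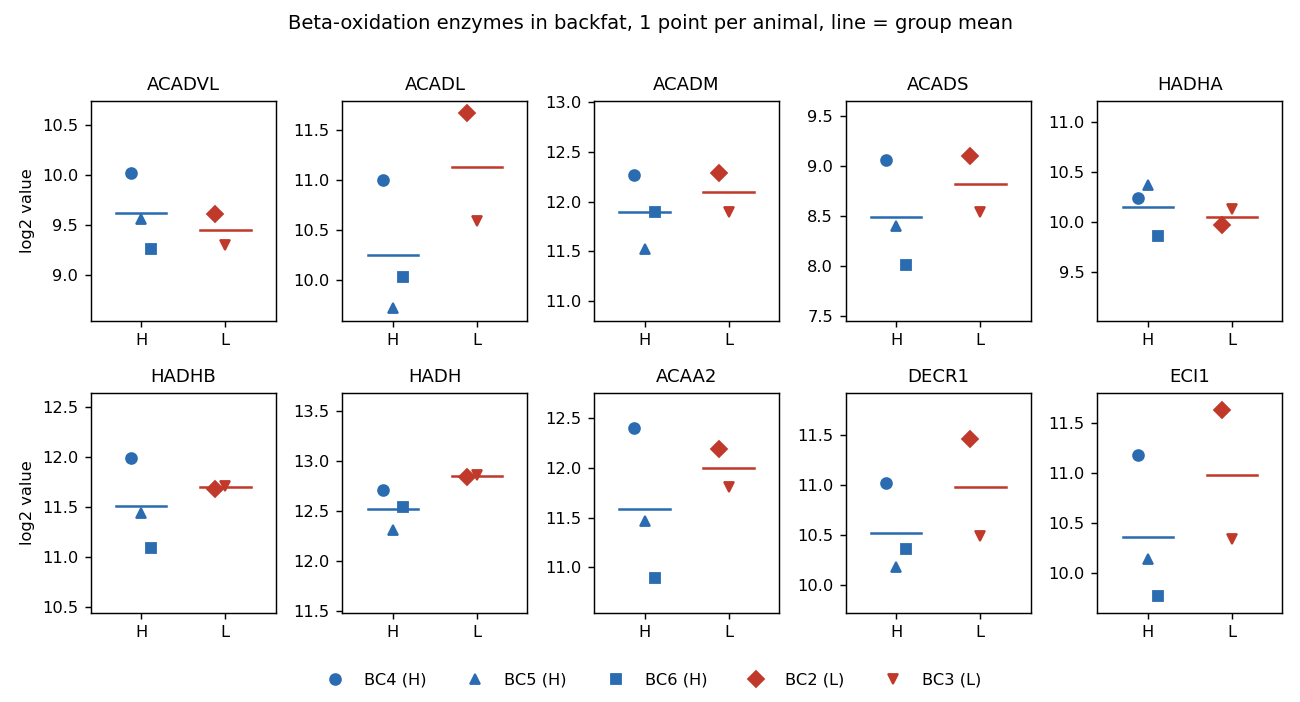
Log2 expression value (vertical axis) of the 10 enzymes, 1 panel per gene, with 1 point per animal and a line at the group mean, H (3 animals) on the left and L (2 animals) on the right. The vertical axes cover the same span of log2 units but start at different values. The groups overlap in 9 panels, and in the panel of HADH the 3 H points lie below both L points.

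ACADVL, the very long-chain dehydrogenase, is bound to the inner mitochondrial membrane. Its log2 value was 10.02 in BC4, 9.56 in BC5 and 9.26 in BC6, against 9.61 in BC2 and 9.30 in BC3. BC4 was the highest animal and BC6 the lowest, so the H animals enclosed both L animals. The H animals averaged 9.61 ± 0.381 (SD, n = 3), and the L animals 9.45 ± 0.220 (SD, n = 2). The difference was 0.16 (95% interval -0.71 to 1.04, standard error, SE, 0.290, limma adjusted p = 1), and without BC4 it was -0.04. The dimmer second probe set of ACADVL read 4.66, 3.64 and 3.68 in BC4, BC5 and BC6, against 4.30 and 3.20 in BC2 and BC3. It gave a difference of 0.24 (SE 0.563), again with overlapping groups.

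ACADL, the long-chain dehydrogenase of the matrix, is known best from rodents, where it takes long and branched chains. Its log2 value was 11.00 in BC4, 9.72 in BC5 and 10.03 in BC6, against 11.67 in BC2 and 10.59 in BC3. BC2 was the highest animal and BC4 came next, above BC3, so the groups overlapped. The H animals averaged 10.25 ± 0.670 (SD, n = 3), and the L animals 11.13 ± 0.762 (SD, n = 2). This was the most negative difference of the 10 enzymes, -0.88 (95% interval -2.70 to 0.94, SE 0.606, limma adjusted p = 1), or 0.543 times the L level on a linear scale. BC2 and BC3 alone differed by 1.08, more than the groups did. The difference was -0.34 without BC2, -1.42 without BC3 and -0.61 without BC5. The span of 1.95 between the highest and the lowest animal exceeded that of 94.3% of the probe sets above the floor.

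ACADM, the medium-chain dehydrogenase, is the enzyme lacking in the most frequent inherited defect of human fatty acid oxidation. Its log2 value was 12.26 in BC4, 11.53 in BC5 and 11.90 in BC6, against 12.29 in BC2 and 11.89 in BC3. BC4 lay beside BC2 and BC6 beside BC3, and BC5 alone was low. The difference was -0.19 (95% interval -1.08 to 0.69, SE 0.295, limma adjusted p = 1), and it was 0.0035 without BC2 and -0.39 without BC3.

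ACADS, the short-chain dehydrogenase, acts on butyryl-CoA in the last turn of the cycle. Its log2 value was 9.06 in BC4, 8.40 in BC5 and 8.01 in BC6, against 9.10 in BC2 and 8.54 in BC3. BC4 again lay beside BC2, and the other H animals lay below BC3. The difference was -0.33 (95% interval -1.60 to 0.94, SE 0.423, limma adjusted p = 1), and -0.05 without BC2.

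Whether the dehydrogenases differed from each other between the groups was examined from the log2 difference of a pair within each array. This removes only what an array shifts by the same amount in both genes. A shared pattern of unequal size stays in the difference, and the SD over the 5 arrays was 0.776 for ACADL and 0.305 for ACADVL. The 6 pairs were tested with a two-sided exact permutation test over the 5 animals. Its 10 splits cannot give a p-value below 0.1, so no pair could pass a threshold of 0.05. The pairs share genes and are not independent of one another. The value of ACADVL minus ACADL was -0.98 in BC4, -0.16 in BC5 and -0.77 in BC6, against -2.06 in BC2 and -1.30 in BC3. All H animals were above both L animals, and the pair differed by 1.04 between the groups (SE 0.428, exact permutation p = 0.1, adjusted over the 6 pairs p = 0.3). Without BC2 this was 0.66.

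ACADVL minus ACADS was 0.96 in BC4, 1.16 in BC5 and 1.26 in BC6, against 0.51 in BC2 and 0.75 in BC3. Here too all H animals were above both L animals, by 0.49 on average (SE 0.144, exact permutation p = 0.1, adjusted p = 0.3). ACADL minus ACADS was 1.94 in BC4, 1.31 in BC5 and 2.03 in BC6, against 2.58 in BC2 and 2.05 in BC3. The H animals were below both L animals, although BC6 and BC3 were nearly equal, and the difference was -0.55 (SE 0.350, exact permutation p = 0.2, adjusted p = 0.36). It was -0.29 without BC2 and -0.33 without BC5.

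The remaining pairs all contain ACADM, and in each of them the groups overlapped. How often the groups stay apart for pairs of other genes on the array was not examined. The arrangement of the dehydrogenase pairs therefore has no background share beside it. The group difference was 0.36 for ACADVL minus ACADM (SE 0.252, exact permutation p = 0.3, adjusted p = 0.36) and -0.69 for ACADL minus ACADM (SE 0.356, exact permutation p = 0.3, adjusted p = 0.36). For ACADM minus ACADS it was 0.13 (SE 0.320, exact permutation p = 0.9, adjusted p = 0.9), and -0.11 without BC6. The differences followed no steady order by chain length. The very long-chain enzyme had the highest difference (0.16), the long-chain enzyme the lowest (-0.88), and the medium-chain (-0.19) and short-chain (-0.33) enzymes lay in between. The difference of ACADVL minus ACADM was 0.20 without BC5, and that of ACADL minus ACADM was -0.34 without BC2.

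**Figure D2:**
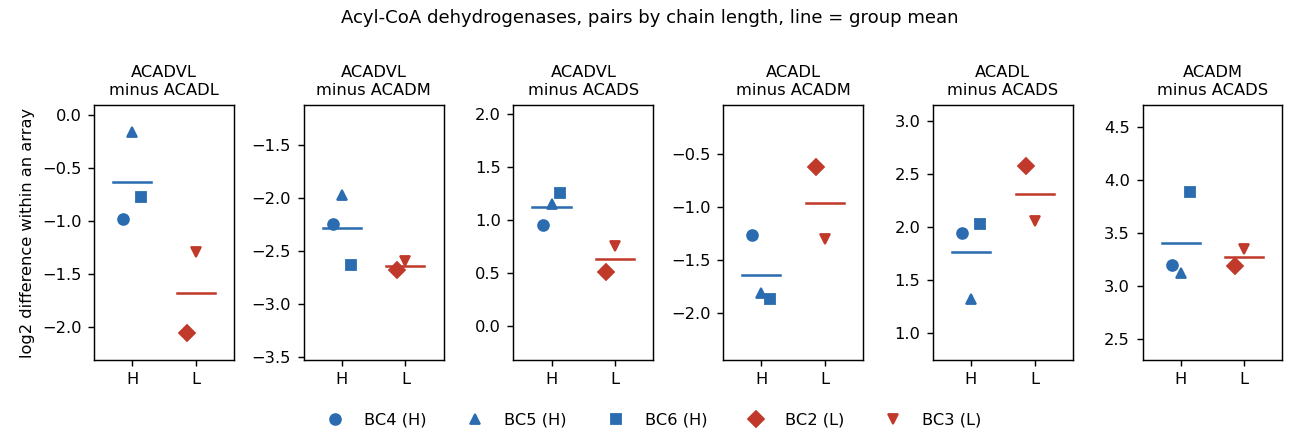
Log2 value of 1 acyl-CoA dehydrogenase minus another within each array (vertical axis), 1 panel per pair, with 1 point per animal and a line at the group mean, H on the left and L on the right. The vertical axes cover the same span but start at different values. The H points lie above both L points for ACADVL minus ACADL and ACADVL minus ACADS, lie below them for ACADL minus ACADS, and overlap with them in the 3 pairs with ACADM.

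HADHA and HADHB encode the alpha and beta subunits of the trifunctional protein of the inner membrane. The alpha subunit hydrates long-chain enoyl-CoA and oxidizes the hydroxyl group, and the beta subunit is the long-chain thiolase. HADHA was at 10.24 in BC4, 10.37 in BC5 and 9.86 in BC6, against 9.97 in BC2 and 10.13 in BC3. It was the only enzyme with its highest value in BC5, and its span over the animals was 0.52, the smallest of the 10. The difference was 0.11 (95% interval -0.48 to 0.70, SE 0.197, limma adjusted p = 1), and -0.00046 without BC5.

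HADHB was at 11.99 in BC4, 11.44 in BC5 and 11.09 in BC6, against 11.68 in BC2 and 11.71 in BC3. The L animals were nearly equal and lay within the H range. The difference was -0.19 (95% interval -1.15 to 0.77, SE 0.319, limma adjusted p = 1), and 0.019 without BC6. The other probe sets of HADHB gave -0.02 (SE 0.350) and -0.34 (SE 0.370). In all 3 probe sets BC4 was the highest animal and BC2 and BC3 differed by less than 0.1, while the lowest animal was BC6 in 2 of them and BC5 in the other. The subunits work in 1 complex, and HADHA minus HADHB, a pair chosen after the values were seen, was -1.75, -1.07 and -1.24 in BC4, BC5 and BC6, against -1.71 and -1.59 in BC2 and BC3. Its group difference was 0.30 (exact permutation p = 0.4), with overlapping groups.

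HADH encodes the 3-hydroxyacyl-CoA dehydrogenase of the matrix, which serves medium and short chains. Its log2 value was 12.72 in BC4, 12.31 in BC5 and 12.55 in BC6, against 12.85 in BC2 and 12.86 in BC3. It was the only one of the 10 enzymes with all H animals below both L animals, an arrangement that 8.63% of the probe sets above the floor also had. The opposite arrangement, all H animals above both L animals, was found in 0 of 10 enzymes and in 10.4% of those probe sets. The H animals averaged 12.53 ± 0.205 (SD, n = 3), and the L animals 12.85 ± 0.0101 (SD, n = 2). The difference was -0.33 (95% interval -0.76 to 0.11, SE 0.145, limma adjusted p = 1). It stayed between -0.42 and -0.22 when each animal was left out in turn.

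ACAA2, the thiolase of the matrix for medium and short chains, was at 12.40 in BC4, 11.47 in BC5 and 10.89 in BC6, against 12.18 in BC2 and 11.80 in BC3. The span of 1.50 among the H animals was the widest of any enzyme within a group, and it enclosed both L animals. The difference was -0.41 (95% interval -2.06 to 1.25, SE 0.552, limma adjusted p = 1), and it was -0.06 without BC6 and -0.81 without BC4.

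DECR1 reduces the conjugated double bonds that arise when polyunsaturated fatty acids are broken down, and ECI1 shifts a double bond into the position that the cycle can use. DECR1 was at 11.02 in BC4, 10.18 in BC5 and 10.36 in BC6, against 11.46 in BC2 and 10.49 in BC3. ECI1 was at 11.17 in BC4, 10.14 in BC5 and 9.77 in BC6, against 11.63 in BC2 and 10.33 in BC3. Both auxiliary enzymes had BC2 highest, BC4 next and then BC3, above the other H animals, as ACADL did. The difference was -0.46 for DECR1 (SE 0.464, 95% interval -1.85 to 0.93) and -0.62 for ECI1 (SE 0.687, 95% interval -2.68 to 1.44), each with an adjusted p = 1 from limma. Both were 0.029 without BC2, and without BC3 they were -0.94 and -1.27.

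**Figure D3:**
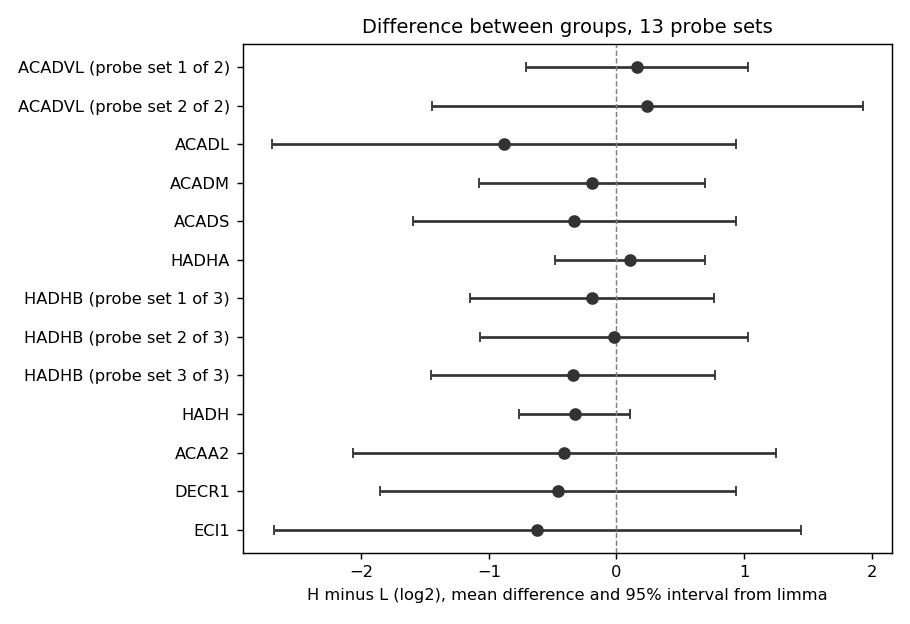
Difference H minus L in log2 units (horizontal axis) for the 13 probe sets of the 10 enzymes, with points at the mean difference and bars for the 95% interval from limma. All 13 intervals cross 0, and 10 of the 13 points lie below it.

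The variation between animals of 1 group was larger than the difference between the groups for most enzymes. The span within H exceeded the group difference in 10 of 10 enzymes (81% of the probe sets above the floor), and the gap between BC2 and BC3 exceeded it in 7 of 10 (58.4%). BC2 was the highest of the 5 animals for 5 enzymes and BC4 for 3, against 20.7% and 17.3% of the probe sets above the floor. The lowest animal was BC6 for 6 enzymes and BC5 for 4, against 18.8% and 25.6%. BC4 was the highest of the H animals in 9 of 10 enzymes, against 30.5% of the probe sets above the floor, and BC5 and BC6 were both below BC2 and BC3 in 7 of 10, against 15.7%. BC2 was above BC3 in 7 of 10, against 45%. These arrangements were picked out after the values were seen and have no test. With each enzyme centred on its own mean, the average over the enzymes was 0.37 in BC4, -0.30 in BC5 and -0.44 in BC6, against 0.43 in BC2 and -0.05 in BC3.

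**Figure D4:**
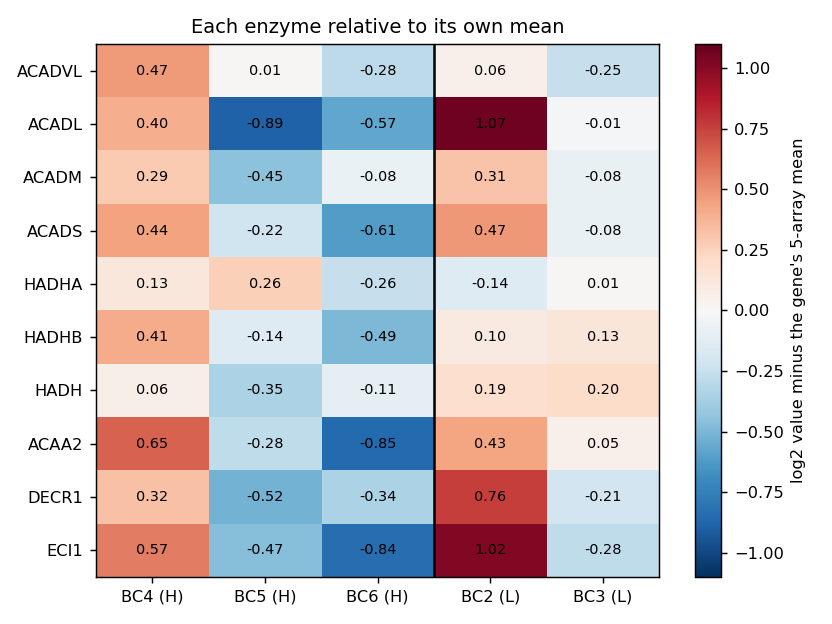
Log2 value of each enzyme minus its mean over the 5 animals (colour and printed number), with the enzymes as rows, the H animals in the first 3 columns and the L animals in the last 2. BC4 and BC2 are mostly above the mean and BC5 and BC6 mostly below it, with HADHA in BC5 (0.26) and in BC2 (-0.14) and ACADVL in BC5 (0.01) as exceptions.

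The enzymes fell on a scale from steady to variable. The span over the 5 animals was 0.52 for HADHA and 0.55 for HADH, which exceeded 36.8% and 39.8% of the probe sets above the floor. It was 0.76 for both ACADVL and ACADM, 0.90 for HADHB and 1.09 for ACADS. It was 1.28 for DECR1, 1.50 for ACAA2, 1.86 for ECI1 and 1.95 for ACADL. By the root mean square difference of centred values over the 5 animals, the members closest to ACADL were DECR1 (0.254) and ECI1 (0.264), and the farthest was HADHA (0.767).

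Among 5321 genes outside the cycle with a probe set above the floor on all arrays, the 5 closest to ACADL by the same measure were RBP4 (0.123), GTPBP8 (0.132), RIDA (0.148), THTPA (0.156) and DDO (0.158), where the median over those genes was 0.721. RBP4, the plasma carrier of retinol that adipocytes secrete, was at 8.53, 7.52 and 7.87 in BC4, BC5 and BC6, against 9.23 and 8.26 in BC2 and BC3. The 5 closest to the average profile of the 10 enzymes were LONP2 (0.0492), ETFDH (0.0683), MRS2 (0.0734), ATXN2 (0.0805) and VLDLR (0.0887), with a median of 0.408. LONP2 is a peroxisomal protease, and ETFDH passes electrons from the acyl-CoA dehydrogenases to ubiquinone. LONP2 was at 12.06, 11.51 and 11.26 in BC4, BC5 and BC6, against 12.09 and 11.66 in BC2 and BC3. With 5 animals this ranking is a description only.

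Of 12 other mitochondrial acyl-CoA dehydrogenases and beta-oxidation steps, 10 were measured, and ACOT2 and ACAT1 had no probe set in the annotation used. ACAD10 was at the floor on all arrays. The other 9 had a lower mean in H, against 45.6% of the probe sets above the floor, and 0 passed the call in either direction. Their median difference was -0.58 (-0.53 with ACAD10), against 0.022 over all probe sets above the floor. The smallest p-values were those of ACAD11, GCDH and HSD17B10. ACAD11, a dehydrogenase of long chains, was at 6.80, 6.52 and 6.78 in BC4, BC5 and BC6, against 7.22 and 7.71 in BC2 and BC3, a difference of -0.77 (SE 0.203, limma adjusted p = 1) with all H animals below both L animals. It was the only one of the list (1 of 10) with an unadjusted p under 0.05 in limma, against 3.18% of all probe sets, those at the floor included. GCDH, of lysine and tryptophan breakdown, differed by -0.83 (SE 0.323), also without overlap. HSD17B10, of isoleucine breakdown, differed by -0.48 (SE 0.253), with overlap. In all, 3 of the 10 had the H animals below both L animals, against 8.63% of the probe sets above the floor.

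The 3 genes of electron transfer from the dehydrogenases also had lower means in H, with a median of -0.30 and no call. A lower mean in H was found for 45.6% of the probe sets above the floor. ETFA, a subunit of the electron transfer flavoprotein, was at 10.88, 10.50 and 10.88 in BC4, BC5 and BC6, against 11.39 and 11.06 in BC2 and BC3, a difference of -0.47 (SE 0.195). ETFB, the other subunit, differed by -0.22 (SE 0.241) and ETFDH by -0.30 (SE 0.348). ETFA was the only one of the 3 whose groups did not overlap. Its H animals were all below both L animals, as in 8.63% of the probe sets above the floor.

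Fatty acid activation and the carnitine shuttle bring the substrate into the matrix. All 6 genes had a probe set, but CPT2 had 1 and the same value on all arrays and has no measured level. Of the other 5, 1 had a lower and 4 a higher mean in H, with 0 calls and a median of 0.13 (0.069 with CPT2). A lower mean in H was found for 45.6% of the probe sets above the floor. SLC25A20, the carrier of acylcarnitines across the inner membrane, was at 9.39, 8.98 and 9.14 in BC4, BC5 and BC6, against 9.59 and 9.39 in BC2 and BC3. Its difference was -0.32 (SE 0.164). Its H animals were all below both L animals, as in 8.63% of the probe sets above the floor, although BC4 and BC3 were nearly equal. CPT1A and CPT1B, the forms of the enzyme that starts the shuttle, differed by 0.57 (SE 0.493) and 0.50 (SE 0.515), with overlap. No gene of the shuttle, of electron transfer or of the peroxisomal list had an unadjusted p under 0.05 in limma. Whether the shuttle differed from the cycle was not tested.

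Peroxisomal beta-oxidation, which shortens very long and branched chains, had 7 of 12 genes measured. All 7 had a lower mean in H, against 45.6% of the probe sets above the floor, with 0 calls and a median of -0.29. DECR2, the peroxisomal counterpart of DECR1, differed by -0.55 (SE 0.255) and was the only one without overlap. Its H animals were all below both L animals, as in 8.63% of the probe sets above the floor. HSD17B4, the peroxisomal multifunctional enzyme, differed by -0.59 (SE 0.380) and ABCD3, a transporter of the peroxisomal membrane, by -0.60 (SE 0.532). OXCT1, which activates ketone bodies for use, had a difference of -1.13 (SE 0.744). It was at 9.72 and 9.21 in BC4 and BC5 but at 11.23 in BC6, against 11.30 and 11.08 in BC2 and BC3, so that BC6 lay with the L animals. BDH1 was at the floor.

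Of the 8 listed regulators of fatty acid oxidation 5 had a probe set. PPARA, PPARGC1A and RXRA stayed at the floor throughout, and PPARGC1B, ESRRA and NRIP1 had no probe set in the annotation used. PPARD, a nuclear receptor for fatty acids, differed by 0.22 (SE 0.305) and PPARG, the receptor that directs fat cell formation, by -0.08 (SE 0.179), both with overlap. A probe set at the floor does not show that the gene was silent.

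The citric acid cycle, which takes up the acetyl-CoA, had 15 of 16 genes measured. The mean was lower in H for 11 and higher for 4, with 0 calls and a median of -0.30. Of the probe sets above the floor, 45.6% had a lower mean in H. The smallest p-values belonged to DLST and IDH3A, both higher in H, followed by FH. DLST, a subunit of the 2-oxoglutarate dehydrogenase complex, was at 8.95, 8.98 and 8.84 in BC4, BC5 and BC6, against 8.59 and 8.58 in BC2 and BC3. Its difference was 0.34 (SE 0.0508, limma adjusted p = 1), larger than the spread within either group. IDH3A, a subunit of isocitrate dehydrogenase, differed by 0.13 (SE 0.0245) and FH, fumarase, by -0.51 (SE 0.199), and these groups did not overlap either. At an unadjusted p under 0.05 in limma the count was 2 of 15, DLST and IDH3A, against 3.18% of all probe sets, those at the floor included. Of the 15 genes, 3 had all H animals below both L animals and 2 had them above, against 8.63% and 10.4% of the probe sets above the floor. The average of the centred values was 0.18 in BC4 and -0.22 in both BC5 and BC6, against 0.37 in BC2 and -0.11 in BC3, and as in the beta-oxidation cycle it was highest in BC2.

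**Figure D5:**
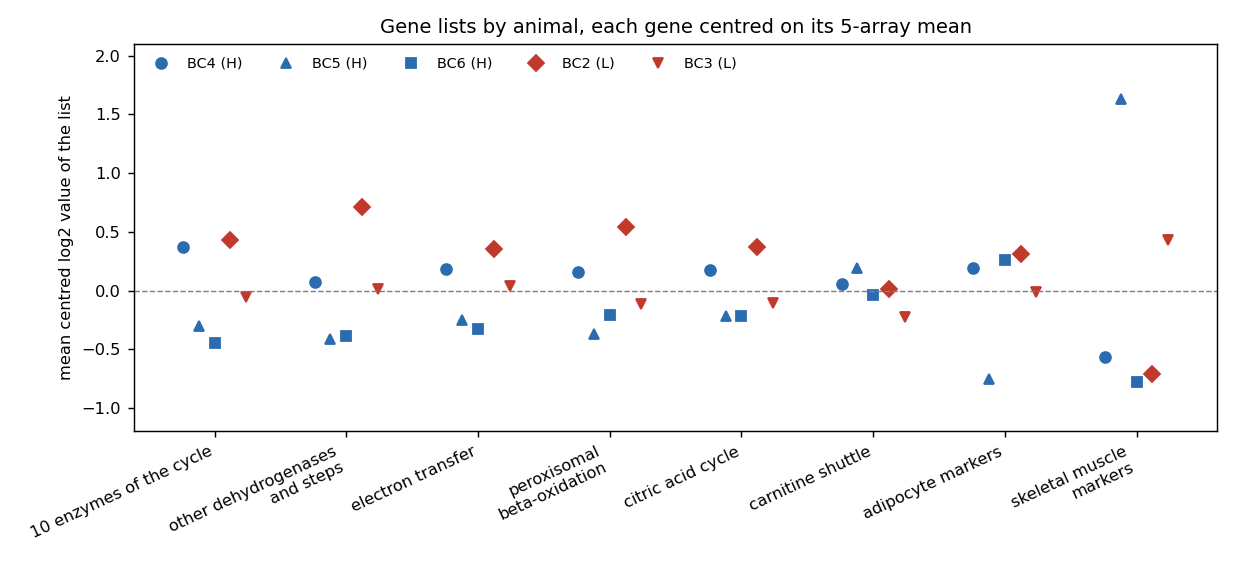
Mean over each gene list of the log2 value minus the gene's mean over the 5 animals (vertical axis), with 1 point per animal, the H animals left of the L animals in each list, and genes at the floor on all arrays left out. BC2 is highest for the 10 enzymes (0.43), the other dehydrogenases and steps, electron transfer, peroxisomal beta-oxidation, the citric acid cycle and the adipocyte markers (0.31), and BC5 is highest for the carnitine shuttle (0.19) and the skeletal muscle markers (1.63). The low adipocyte mean of BC5 (-0.75) includes LEP, ADIPOQ and LPL, lowest there, while FABP4 and LIPE were highest in BC5 by smaller amounts.

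The tissue label was checked against cell type markers. Of 10 adipocyte markers 8 were measured, none at the floor, with a summed linear level of 74540 to 82150 in H and 76820 to 84170 in L. FABP4, the brightest of them, weighed most in these sums and varied little. Single markers differed between animals all the same. ADIPOQ, which encodes adiponectin, was at 12.20, 9.09 and 10.92 in BC4, BC5 and BC6, against 11.82 and 10.52 in BC2 and BC3. LEP, which encodes leptin, was at 8.27, 4.41 and 10.48 in BC4, BC5 and BC6, against 9.33 and 8.43 in BC2 and BC3. BC5 was the lowest animal for both and for LPL (12.84, against 13.52 to 14.01 in the other animals). FABP4 and LIPE went the other way, by smaller amounts, and PNPLA2, PPARG and CIDEA were neither highest nor lowest in BC5. FABP4, the fatty acid binding protein of adipocytes, was at 15.40, 15.49 and 15.36 in BC4, BC5 and BC6, against 15.39 and 15.37 in BC2 and BC3. LIPE, the hormone-sensitive lipase, was at 12.35, 12.40 and 12.12 in BC4, BC5 and BC6, against 12.17 and 12.17 in BC2 and BC3, so that both were highest in BC5. The part of the adipocyte share in the enzymes' values was not tested. Of 9 measured hepatocyte markers TTR and SERPINA1 were at the floor, ALB lay between 2.58 and 4.69, and APOA1 alone was bright (11.29 to 12.57). Their summed level was 4777 to 6147 in H and 2599 to 4091 in L.

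Skeletal muscle, another tissue rich in beta-oxidation enzymes, was represented by 9 of 12 markers, with TNNI1 and MYBPC1 at the floor. The summed level was 46.7 to 471.5 in H and 49.2 to 122.3 in L, with the highest values in BC5 and BC3. MYH2, a fast myosin heavy chain, was at 2.71, 7.84 and 2.17 in BC4, BC5 and BC6, against 2.17 and 4.75 in BC2 and BC3. CKM, the muscle creatine kinase, was at 3.28, 6.95 and 2.43 in BC4, BC5 and BC6, against 2.91 and 5.04 in BC2 and BC3. Among the enzymes of the cycle, HADHA was highest in BC5 and HADH in BC3, and the others were highest in BC2 or BC4. HADH was also lowest in BC5, as were ACADL, ACADM and DECR1, and the others, HADHA among them, were lowest in BC6. This order is a description only, and the part of muscle RNA in the enzymes' values was not tested.

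The other marker lists also moved between animals. The 5 measured macrophage markers, of 8, summed to 354.7 to 1522 in H and 591 to 809.7 in L, highest in BC6. Of 8 endothelial markers 7 were measured (KDR at the floor), and 5 of the other 6 had a higher mean in H, with sums of 10140 to 18840 in H and 8636 to 12660 in L. All 5 measured smooth muscle markers, of 6, had a higher mean in H, with sums of 8522 to 14950 in H and 6545 to 12010 in L. For both of these lists the sums of the groups overlapped. Of the probe sets above the floor, 45.6% had a lower mean in H. Of 6 fibroblast markers 4 were measured (COL3A1 at the floor), with sums of 20040 to 41280 in H and 28340 to 31780 in L. The measured markers of brown or beige fat, DIO2 and ELOVL3, were at the floor on every array, and UCP1 and PRDM16 had no probe set in the annotation used. No marker passed the call, and the part of the other cell types in the enzymes' values was not tested.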

How the data were processed

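Backfat RNA of 5 pigs was hybridized to Affymetrix porcine arrays. The deposited log2 values had been adjusted for background, normalized between arrays and summarized per probe set by the authors. The methods name GCRMA and the processing notes RMA, so the method is not settled. The extraction note names liver, the tissue label backfat. The labels give the animal, and the key from animal to group came from the study's text.

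From these values 124 controls were left out, and H minus L was fitted to 23999 probe sets without covariates in limma 3.58.1 (R 4.3.3) with Benjamini-Hochberg adjustment. The thresholds are those that the methods state for sequencing. All 10 symbols matched the Sscrofa11.1 RefSeq table by gene ID. Named genes are the 10 enzymes, up to 3 with the smallest p per pathway list and the 5 nearest profiles, and some markers were named after their values were seen. The enzymes and lists were chosen with earlier results of these data known. The fit was tested on simulated data. Alternatives were other thresholds, filters, scalings, variance models, probe sets and leaving out each animal. With 1 array per animal, the number of arrays limits the precision. Some genes of the pathway lists are not reported here.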

Additional observations from a re-analysis of the deposited data

How the results depend on the processing

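No enzyme passed under any alternative run. The adjusted p from limma ran from 0.878 to 0.923 over the enzymes without the dimmest 40% of probe sets. After median centring it ran from 0.476 (ACADL and HADH) to 0.871 (HADHA), and in the other runs it was as in the main fit. Over all probe sets, 0 passed in limma and 762 did at an unadjusted p under 0.05. Leaving out each animal gave 0 to 286, with 160 without L replicate 2 (BC2) and 286 without L replicate 3 (BC3), and in both cases the single remaining L animal was given the spread of H. The number of enzymes with a lower mean in H was 8 under the 8 other alternatives and 5 to 9 on leaving out each animal. The median difference over the enzymes was -0.37 to -0.20 under the other alternatives, with -0.20 under array weights, and -0.52 to -0.025 on leaving out each animal. Single differences turned sign only on leaving out an animal, and the cause was not tested. The ranges were -0.039 to 0.34 for ACADVL, turning without BC4, -0.00046 to 0.26 for HADHA, without BC5, and -0.43 to 0.019 for HADHB, without BC6. Without BC2 the sign turned for ACADM (-0.39 to 0.0035), DECR1 (-0.94 to 0.029) and ECI1 (-1.27 to 0.029). ACADL stayed between -1.42 and -0.34. Among the chain-length pairs only ACADM minus ACADS turned sign (-0.11 to 0.28). The median of all probe sets above the floor was 0.022 as deposited, -0.020 after median centring and 0.0071 after quantile normalization. No paired analysis was possible because no animal number occurs in both H and L. Signal over background limits what can be said of probe sets near the floor.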
